A study of Homo sapiens with 2 samples.

Results

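Keratins are the intermediate filament proteins of epithelial cells. The 10 genes described here cover the main keratin programmes of a stratified mouth lining together with keratins of simple epithelium. They were chosen by name, with earlier results of these data known. KRT5, KRT14 and KRT15 are of the basal layer, and KRT17, KRT6A and KRT16 of stressed and proliferating epithelium. KRT4 and KRT13 are of the mucosal suprabasal layers, and KRT18 and KRT19 of simple epithelium. Of the 10 genes, 8 had probe sets that the platform's annotation gives to that gene alone. These were 10 probe sets in all, among 54613 that are not controls, and 8 genes among 19775 named in this way. KRT17 and KRT6A had no probe set under that annotation and were not analysed here. No probe set carried a member's symbol together with another symbol.

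The cells were Ca9-22, a human line from a gingival carcinoma. Cells with a RUNX2 vector were compared with cells with an empty vector, and both were stably transduced and selected with blasticidin, an antibiotic that kills cells without the vector's resistance gene. RUNX2 is a runt-domain transcription factor best known for driving bone formation. Total RNA of each was hybridised to 1 Affymetrix array, so each group was 1 sample and nothing can be said of the spread between cultures. No test between the groups was possible and no p-value is given. Whether the stable cells were a pool or 1 clone was not given in the sources used here.

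A keratin filament is built from pairs, each made of an acidic type I and a basic type II protein. Cells of the basal layer pair KRT5 (type II) with KRT14 (type I) and add KRT15 as a further type I partner. As cells of the oral lining move upwards they replace this pair with KRT4 (type II) and KRT13 (type I), whereas wounding and hyperproliferation bring in KRT6 proteins with KRT16 and KRT17. Simple epithelia rely on KRT8 (type II) with KRT18, and KRT19 is a small type I keratin that occurs in simple epithelia and also in basal cells of mucosa.

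Levels below are intensities in arbitrary units, as deposited for the empty vector array and multiplied by 0.966 for the array labelled RUNX2, so that both arrays had the same mean after trimming 2% at each end. The median of each array served as a floor (51.8 for the array labelled RUNX2 and 55.3 for the empty vector array), and a gene was measured if a probe set of its own exceeded the floor on at least 1 array. Log2 ratios are the array labelled RUNX2 over the empty vector array. Probe sets differ in how brightly they bind, so levels are compared between arrays for 1 probe set and not between keratins.

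The labels were checked with the RUNX2 gene itself, and its probe sets disagreed in direction. Of 6 RUNX2 probe sets, 3 were measured. The level of 216994_s_at was 854 on the array labelled RUNX2 and 204 on the empty vector array, and that of 221282_x_at was 353 against 102, whereas 232231_at read 433 on the array labelled RUNX2 and 1746 on the empty vector array. The gene carried by the vector thus leaves the labels unchecked, and every direction given here rests on them alone. Over all 12729 measured genes, 180 passed 2-fold upwards and 187 downwards, and the median log2 ratio was -0.06. Each gene was read from its brightest measured probe set, so RUNX2 itself counts among the 187, at -2.01 from 232231_at. Across the arrays, 1448 probe sets held the same deposited value on both.

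In the array labelled RUNX2, the keratins split by gene and did not shift as a block. KRT14 was 2.69-fold higher, KRT16 1.67-fold higher and KRT5 1.42-fold higher, while KRT13 was 1.65-fold lower. KRT15, KRT18 and KRT19 lay within 1.26-fold of the empty vector array, and KRT4 was below the floor on both arrays. Of the 7 measured members, all above the floor on both arrays, 1 passed 2-fold upwards, against 1.41% of all measured genes, and 0 passed 2-fold downwards, against 1.47%. At 1.5-fold, KRT14 and KRT16 passed upwards (2 members, against 5.77% of all measured genes) and KRT13 passed downwards (1 member, against 6.86%). At 4-fold no member passed either way, where 0.173% of all measured genes passed upwards and 0.0864% downwards. The members' median log2 ratio was 0.33, with 6 of the 7 above 0. Over all 12729 measured genes the median was -0.06, with 5428 above 0.

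**Figure D1:**
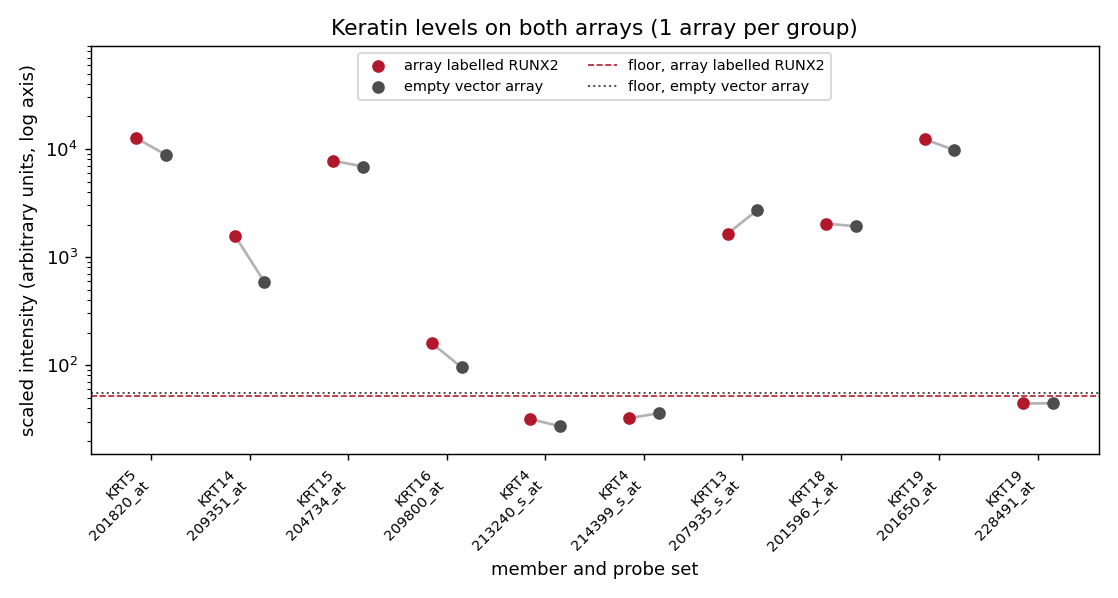
Scaled intensity (log axis, arbitrary units) of each of the 10 member probe sets on the array labelled RUNX2 (red, left) and the empty vector array (grey, right), with the floor of each array as a horizontal line. The line of KRT14 is the steepest (1579 on the array labelled RUNX2, 586 on the empty vector array), KRT13 is the measured member that is lower on the array labelled RUNX2, and both KRT4 probe sets and 1 of the KRT19 probe sets lie under the floors.

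Among the basal keratins, KRT14 differed more than its partner. KRT14, which forms the filament network of dividing basal cells, had a level of 1579 on the array labelled RUNX2 and 586 on the empty vector array, a log2 ratio of 1.43. This is 1 probe set, 209351_at, without a second one to set beside it, and it stood 30.4 times the floor on the array labelled RUNX2 and 10.6 times on the empty vector array. A ratio at least as high was found in 61 of all measured genes, or 0.479%, and in 0.44% of the 1818 measured genes whose mean log2 level lay within 0.5 of that of KRT14.

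KRT5, the type II partner of KRT14, read 12580 on the array labelled RUNX2 and 8842 on the empty vector array, a log2 ratio of 0.51. It is among the brightest probe sets, where log2 ratios were narrow. Of 109 genes with a level like that of KRT5, 2.75% had a ratio at least as high, compared with 7.67% of all measured genes. The log2 ratios of KRT14 and KRT5 differed by 0.92, which means that KRT14 was higher by a further 1.89-fold beyond the difference seen in KRT5. Whether the brightness of the KRT5 probe set narrowed its ratio, and so widened this gap, was not tested.

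KRT15, another type I keratin of basal cells, had 7783 on the array labelled RUNX2 and 6879 on the empty vector array. Its log2 ratio was 0.18, and 25.4% of the 169 genes of like level had one at least as high. The basal keratins were thus all above 0, with KRT14 the furthest and KRT15 the nearest. This was not particular to them, because 6 of the 7 measured members lay above 0.

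Of the keratins of stressed and proliferating epithelium, KRT16 alone could be read. KRT16, which appears in wounded, hyperproliferative and tumour epithelium, had 159 on the array labelled RUNX2 and 95.4 on the empty vector array, a log2 ratio of 0.74. It was a dim probe set, 3.06 times the floor on the array labelled RUNX2 and 1.73 times on the empty vector array. A ratio at least as high occurred in 3.95% of the 2227 genes of like level. RefSeq lists 6 pseudogenes named after KRT16, so the source of this signal is uncertain. When the array median was added to each level as an offset, instead of serving as a floor, the log2 ratio of KRT16 was 0.48.

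The mucosal suprabasal pair gave 1 measured gene. KRT13, the type I keratin of the layers above the basal cells in the oral lining, had 1643 on the array labelled RUNX2 and 2711 on the empty vector array, a log2 ratio of -0.72. A ratio at least as low was found in 2.98% of the 873 genes of like level and in 3.95% of all measured genes. Its type II partner KRT4 was read by 2 probe sets, with 31.6 and 32.2 on the array labelled RUNX2 and 27.1 and 35.8 on the empty vector array. Both lay under the floor on both arrays, so no difference is given for KRT4, and the arrays do not show whether it went with KRT13.

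The RefSeq promoter table held 2 of the members, both type II keratin genes on chromosome 12. They are shown because KRT5 was among the brightest probe sets and KRT4 was below the floor, and because the RUNX core motif can be looked for in them. Each run gives the 250 bases upstream of the annotated start, 5′ to 3′ on the minus strand of GRCh38.p14, at chr12:52520395-52520644 for KRT5 and chr12:52814117-52814366 for KRT4. Capitals would mark an exact match to the letters searched, and there is none.
KRT5: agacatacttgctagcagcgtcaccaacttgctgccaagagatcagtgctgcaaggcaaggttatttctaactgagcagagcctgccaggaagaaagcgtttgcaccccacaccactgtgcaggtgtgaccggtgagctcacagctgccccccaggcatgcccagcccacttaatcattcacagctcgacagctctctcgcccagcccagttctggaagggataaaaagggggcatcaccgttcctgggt
KRT4: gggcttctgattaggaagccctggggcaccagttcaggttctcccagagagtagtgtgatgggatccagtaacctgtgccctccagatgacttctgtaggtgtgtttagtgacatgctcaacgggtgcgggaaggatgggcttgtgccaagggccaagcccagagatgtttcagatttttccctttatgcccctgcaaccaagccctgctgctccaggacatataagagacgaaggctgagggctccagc
The letters searched on both strands were exact forms of the RUNX core motif (TGTGGT), the TATA box (TATAAA) and the AP-1 motif (TGAGTCA). Other spellings of these motifs were not searched. Over the same 250 bases of 35116 promoters in the table, TGTGGT stood in 11.0%, TATAAA in 10.7% and TGAGTCA in 4.20%. That neither window holds these letters does not show that either promoter lacks a TATA box or another motif in other letters. It also says nothing of whether a factor binds at KRT5 or KRT4.

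KRT13 and KRT14 lie in the same cluster of type I keratin genes on chromosome 17 and had opposite signs. In the order of the RefSeq annotation the members there run KRT13, KRT15, KRT19, KRT14, KRT16 and KRT17, and between KRT19 and KRT14 stands 1 other protein-coding gene, while the other members follow each other directly. Along this order the log2 ratios were -0.72, 0.18, 0.33, 1.43 and 0.74, with KRT17 not analysed. The sign thus changed between KRT13 and its neighbour KRT15, and the log2 ratios of KRT14 and KRT13 differed by 2.15.

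**Figure D2:**
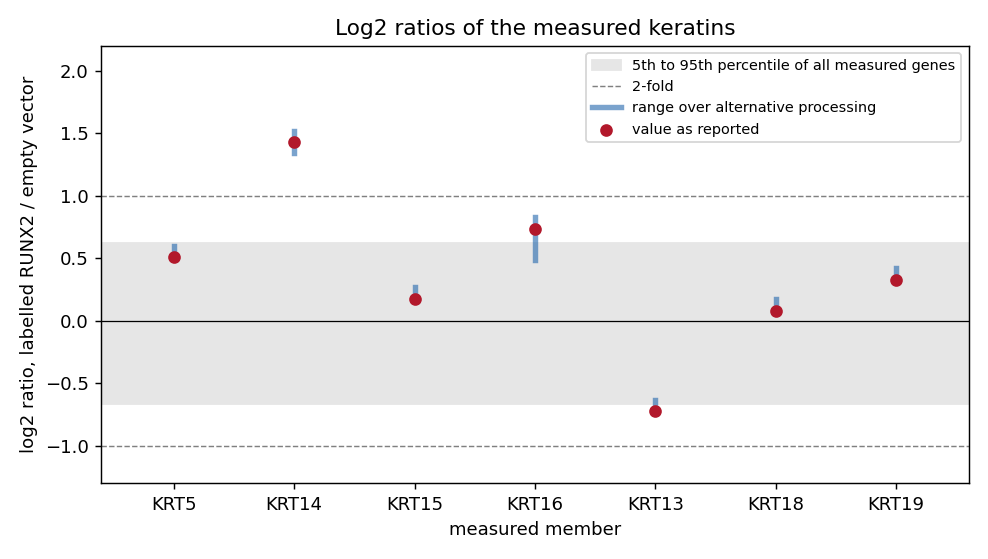
Log2 ratio of the array labelled RUNX2 over the empty vector array for the 7 measured members (red points), with the range over the alternative ways of processing (blue bars), the 5th to 95th percentile of all measured genes (-0.67 to 0.62, grey band) and 2-fold (dashed lines). KRT14 lies beyond 2-fold, KRT16 and KRT13 lie just outside the band on opposite sides, and the other members lie within it.

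The simple-epithelium keratins stayed well within 2-fold. KRT18 read 2037 on the array labelled RUNX2 and 1927 on the empty vector array, a log2 ratio of 0.08, and 39.3% of the 927 genes of like level had a ratio at least as high. KRT8, the type II partner of KRT18 and its direct neighbour on chromosome 12, had 734 on the array labelled RUNX2 and 655 on the empty vector array, a log2 ratio of 0.16. The log2 ratios of KRT18 and KRT8 therefore differed by about 0.08. Both probe sets are of the kind that can bind several transcripts (their identifiers end in _x_at), and RefSeq lists 68 pseudogenes named after KRT18 and 52 named after KRT8, so the source of both signals is uncertain.

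KRT19 had 12313 on the array labelled RUNX2 and 9801 on the empty vector array in 201650_at, a log2 ratio of 0.33, with 8.57% of the 105 genes of like level at least as high. Its other probe set, 228491_at, was below the floor on both arrays, at 44.1 on the array labelled RUNX2 and 44.2 on the empty vector array, and gives no ratio. RefSeq lists 5 pseudogenes named after KRT19.

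At the brightness of KRT5, KRT15 and KRT19 a 2-fold difference was not seen in any gene. Of 141 genes with a mean level at least that of KRT15, 0 passed 2-fold upwards and 0 downwards, and the 5th and 95th percentiles of their log2 ratios were -0.31 and 0.36. The log2 ratio of KRT5 lay above that range, and those of KRT15 and KRT19 lay within it. Whether these probe sets were near the upper limit of the scanner was not tested, and the highest deposited intensities were 25253 on the array labelled RUNX2 and 25079 on the empty vector array.

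**Figure D3:**
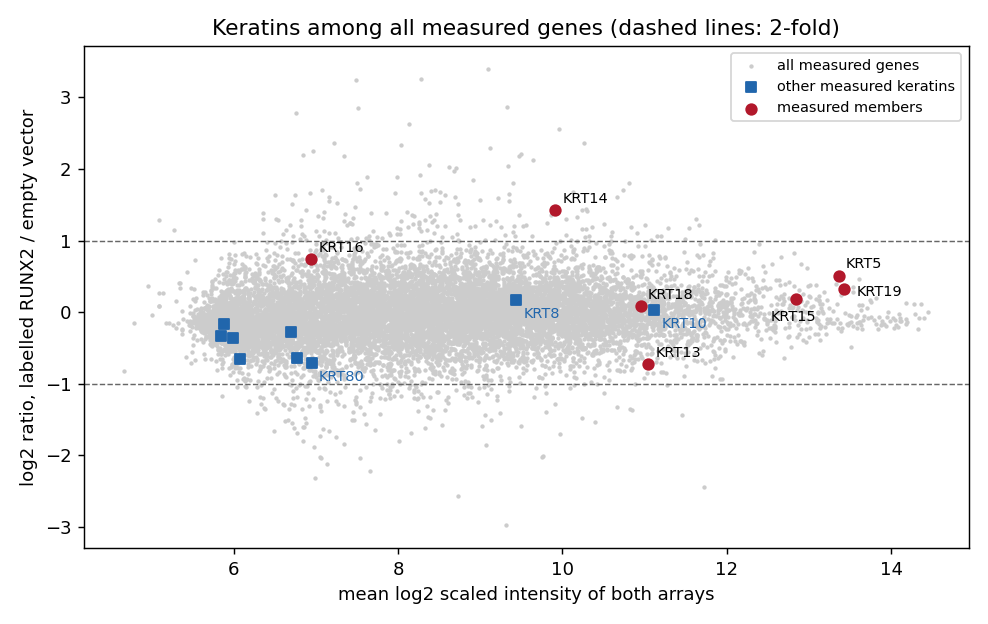
Log2 ratio against the mean log2 scaled intensity of both arrays for all 12729 measured genes (grey), the 7 measured members (red) and the 9 other measured keratins (blue squares), with dashed lines at 2-fold. KRT5, KRT15 and KRT19 sit at the bright end where the cloud is narrow, KRT14 stands above 2-fold, and most of the other keratins lie at the dim end below 0.

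The rest of the keratin family was largely dim. Of 36 other keratin genes with probe sets of their own, 27 lay below the floor on both arrays, among them KRT7 of simple and glandular ducts, KRT20 of intestinal epithelium, and KRT1 and KRT2, which cornifying skin expresses. The highest level among these unmeasured probe sets was 50.6 on the array labelled RUNX2 and 52.9 on the empty vector array. The 9 measured genes had a median log2 ratio of -0.33, with 2 above 0, against 5428 of all 12729 measured genes. Of the 9, 0 passed 2-fold either way, against the 1.41% and 1.47% of all measured genes.

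KRT80, a type II keratin found in many epithelia, was the lowest of these, with 96.3 on the array labelled RUNX2 and 158 on the empty vector array, a log2 ratio of -0.71. KRT74 and KRT32, both keratins of the hair follicle, had -0.65 and -0.64, with levels of 53.7 and 87.3 on the array labelled RUNX2 and of 84.3 and 136 on the empty vector array. KRT83 and KRT85, which are hair keratins, had -0.36 and a bound of -0.33. All of these were under 3 times the floor, so their ratios come from dim spots. KRT10, the type I keratin of suprabasal skin cells, was bright and even, with log2 ratios of 0.07, 0.03 and -0.02 in its 3 probe sets. The probe sets with 0.07 and 0.03 end in _x_at, the kind that can bind several transcripts, and the other ends in _s_at.

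Proteins that attach keratin filaments to junctions or regulate them differed little as a list. All 15 listed genes were measured, and 0 passed 2-fold, against 1.41% of all measured genes upwards and 1.47% downwards. Of the 15, 9 lay above 0, against 5428 of all 12729 measured genes, and the median log2 ratio was 0.12. FAM83H, which recruits casein kinase to keratin filaments, was the highest at 0.86, with 1404 on the array labelled RUNX2 and 771 on the empty vector array. The plakin PPL, periplakin, was the lowest at -0.69, with 584 on the array labelled RUNX2 and 943 on the empty vector array.

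DST, whose epithelial product BPAG1e ties KRT5 and KRT14 filaments to hemidesmosomes, had 0.47 in its brightest probe set and between -0.24 and 0.20 in the other 5 that were measured. SFN, the 14-3-3 protein that binds keratins in epithelial cells, had 0.47, with 0.44 and 0.77 in its other probe sets. Desmoplakin, DSP, which anchors keratins at desmosomes, had 0.12, with levels of 9491 on the array labelled RUNX2 and 8745 on the empty vector array.

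Of 13 listed intermediate filament genes that are not keratins, 8 were measured, with a median log2 ratio of 0.06. Among the 7 above the floor on both arrays, the log2 ratios lay between -0.43 and 0.44. Vimentin, VIM, the filament of mesenchymal cells, was the lowest, with 43.9 on the array labelled RUNX2, which is below the floor, and 92.4 on the empty vector array, so that the difference is a bound of at least 1.78-fold downwards, while the levels themselves are 2.11-fold apart. The nuclear lamin LMNA had 0.01 where it was brightest, and its other measured probe sets reached 0.40. GFAP, an astrocyte filament, was the highest at 0.44, with dim levels of 92.9 on the array labelled RUNX2 and 68.6 on the empty vector array.

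**Figure D4:**
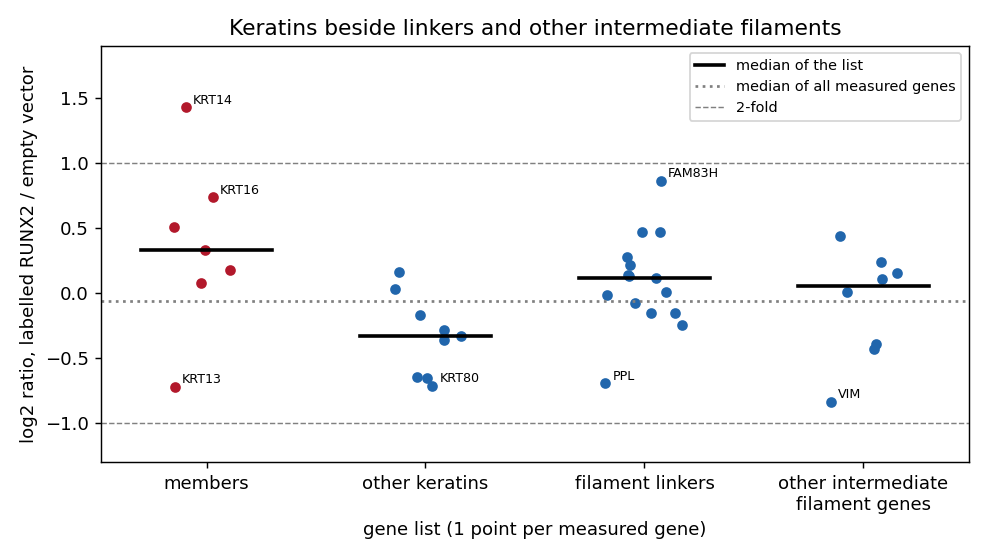
Log2 ratio of each measured gene among the members, the other keratins, the filament linkers and the other intermediate filament genes, with the median of each list (black bar), the median of all measured genes (dotted) and 2-fold (dashed). The medians are 0.33, -0.33, 0.12 and 0.06, KRT14 is plotted beyond 2-fold, and VIM is plotted at its bound of -0.83.

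Markers of basal keratinocytes and of simple epithelium were read next. Both lists held genes well above the floor on both arrays, so they do not settle which epithelium the cells resemble. The 4 basal keratinocyte markers with probe sets of their own (of 6 listed) were measured on both arrays, with log2 ratios from 0.51 to 1.43. TP63 and COL17A1 had no probe set of their own. Besides KRT5 and KRT14, which are members themselves, these were the hemidesmosome integrin chains ITGA6 and ITGB4. The brightest probe set of ITGA6 had 4557 on the array labelled RUNX2 and 2353 on the empty vector array. Its log2 ratio was 0.95, and that of the other was 1.43. The brightest of ITGB4 had 1481 on the array labelled RUNX2 and 581 on the empty vector array. Its log2 ratio was 1.35, with values between -0.11 and 1.07 in the other measured ones. Among simple-epithelium markers, 5 of 7 were measured. The keratins KRT8, KRT18 and KRT19, already given above, had 0.16, 0.08 and 0.33, and the list's median of 0.08 is the value of KRT18. The markers that are not keratins lay below 0. MUC1 had -0.45 in its brightest probe set, and the adhesion protein EPCAM was the lowest, at -0.89. EPCAM had 2666 on the array labelled RUNX2 and 4930 on the empty vector array.

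Markers of other cell types were mostly below the floor. Of fibroblast markers 2 of 8 were measured, with a summed level of 1602 on the array labelled RUNX2 and 2008 on the empty vector array, nearly all of it from 1 probe set of COL1A1 whose other measured probe sets read 59.3 to 152 on the array labelled RUNX2 and 71.4 to 200 on the empty vector array. COL1A2, COL3A1, DCN and LUM were below the floor on both arrays. Leukocyte markers gave 2 measured genes of 6, with a summed level of 1150 on the array labelled RUNX2 and 830 on the empty vector array, mainly LCP1, an actin-bundling protein that carcinoma lines also express, while PTPRC, CD3E, CD14 and LYZ were below the floor. Endothelial markers gave 2 of 7, both dim, the brighter of them on the empty vector array being VWF, whose log2 ratio was -0.44. In RNA from a whole culture, fewer cells that express a keratin and less of its RNA per cell cannot be told apart.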

How the data were processed

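Gene expression was measured in 2 samples, 1 array per group, grouped by their titles. The authors deposited 54675 linear intensity values per array, 1 for each probe set. MAS5 is named in the submitters' processing notes, with no version or target value, and biotin-labelled cRNA was hybridised, per the labels' protocols. The genome build and detection calls are not given in the sources used here, and 1448 equal values leave the summarisation and scale unknown. Computed here with Python 3.11.15, numpy 2.4.6, pandas 2.3.3 and statsmodels 0.14.6: the 62 controls were dropped, the array labelled RUNX2 was scaled to the 2% trimmed mean of the other, values below the array median were raised to it, and each gene was read from its brightest measured probe set (by mean log2 intensity). Of the probe sets, 41091 had 1 symbol, 1801 several and 11721 were not named. Of those with 1 symbol, 41037 were matched by Entrez ID to RefSeq (GRCh38.p14) and took the symbol given there. RefSeq also gave gene order and the promoter sequences. With 1 array per group no test was made, and precision is limited by that number. Probe sets of the same gene differed in log2 ratio with an SD of 0.29 (6165 genes). This is a spread between probe sets, whose source was not tested, and no replicate error. Named were all members, RUNX2, and up to 6 genes per other list with the widest ratios or needed for a marker check; DSP, DST, SFN and KRT10 were named for their role. The members and lists were chosen with earlier results of these data known. Alternatives were 4 other scalings, 2 other floors, no floor, an offset, the mean over probe sets, leaving out _x_at and _s_at probe sets, and thresholds of 1.5-fold and 4-fold. The scripts were tested on simulated data.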

Additional observations from a re-analysis of the deposited data

How the results depend on the processing

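The members' log2 ratios could move only under 5 alternatives, the 4 other scalings and the offset. Their 35 values under these stayed within 0.29 of the value as reported, the SD between probe sets of the same gene, and 0 changed sign. With no factor and with equal array medians, all members moved by the same amount, because 1 constant multiplies the whole array. Those values therefore say nothing of single members. The 32 values outside these 35 equal the reported ones by construction and say nothing of stability. Each measured member has 1 measured probe set and both of its levels exceed the floor. KRT4 passed the floor only when it was set at the 25th percentile, and then had -0.15 in the brighter of its probe sets and, without a floor, 0.22 in the other. KRT14 ranged from 1.35 to 1.52, KRT5 from 0.51 to 0.60, KRT16 from 0.48 to 0.83 and KRT13 from -0.72 to -0.63. At 1.5-fold 2 members passed upwards (KRT14 and KRT16, against 5.77% of all measured genes) and 1 downwards (KRT13, against 6.86%), and at 4-fold 0 passed upwards, where 0.173% of all measured genes did. The members' median lay between 0.25 and 0.51. With the floor at the 75th percentile KRT16 dropped out, and without probe sets ending in _x_at or _s_at KRT13 and KRT18 did. Over all genes, the counts of 180 higher and 187 lower became 112 and 79 with the floor at the 75th percentile, 114 and 91 with an offset, and 229 and 137 with equal array medians. No paired analysis was possible because each group holds 1 array. Detection limits rest on the floor, below which KRT4 cannot be read, and no replicate shows how far these ratios would vary between cultures.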
